A study of Mus musculus with 13 samples.

Results

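Granzymes, perforin and the other genes of the cytotoxic granule were followed in epididymal white fat of male mice. The 9 genes were granzymes A, B, C, K and M (Gzma, Gzmb, Gzmc, Gzmk and Gzmm), perforin (Prf1), the granule membrane protein Nkg7, Fas ligand (Fasl) and the granule proteoglycan serglycin (Srgn). Each was taken as the probe set that names this gene alone, and all 9 were found among the 18818 genes of the array. The fat came from 13 Affymetrix arrays. There were 4 arrays of wild type fat after α-galactosylceramide (αGalCer) and 3 after vehicle, and 3 arrays of CD1d knockout fat after αGalCer and 3 after vehicle. Wild type animals were C57/BL6, and the knockout strain was B6.129S6-Cd1d1/Cd1d2tm1spb/J, whose name lists Cd1d1 and Cd1d2. All animals ate a high fat diet for 4 days, were injected intraperitoneally on days 0 and 2 with αGalCer (100 ng per g body weight) or with its vehicle, pyridine, and gave their fat on day 4 at an age of 6.5 weeks. The labels number the samples of a group as replicates without stating that each came from its own animal, so each p-value reflects only how far these samples spread, and part of that may be technical.

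Cytotoxic lymphocytes, which include natural killer (NK) cells, CD8 T cells and natural killer T (NKT) cells, store perforin and granzymes in secretory lysosomes bound to serglycin. On contact with a target cell the granule fuses with the membrane, perforin opens a path into the target and the granzymes, a family of serine proteases, cleave proteins there. Fas ligand is another killing route, which acts through the death receptor Fas. αGalCer is a glycolipid that CD1d presents to NKT cells, and mice without CD1d lack these cells. The series compares the glycolipid with vehicle where CD1d can present it and where CD1d is missing.

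Values are log2 expression on the deposited RMA scale, so 1 unit is a doubling of the measured signal. Cd1d1, the targeted gene, ran from 2.64 to 3.56 in knockout fat after αGalCer and from 3.45 to 4.03 in knockout fat after vehicle, against 9.08 to 10.01 and 10.55 to 10.86 in wild type fat after the same injections, so the labels of all arrays match their genotype. Adipocyte markers (mean of 6 genes) lay between 10.53 and 12.47 in every array. Some arrays stood apart in markers of other tissues. Skeletal muscle markers (mean of 5 genes) reached 8.67 and 6.97 in knockout vehicle replicates 1 and 2 and 8.97 in knockout αGalCer replicate 3, against 4.89 to 5.96 in the other arrays. Epididymis markers (mean of 5 genes) reached 5.39 in wild type vehicle replicate 3, against at most 4.04 elsewhere. Tests were made with limma in 1 model of all 13 arrays, p-values were adjusted by the Benjamini-Hochberg method over all 18818 genes, with an adjusted p under 0.05 as the threshold for a call. In the text ± after a difference is its standard error (SE).

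After αGalCer in wild type fat, 8 of the 9 granule genes rose and 1, Gzmm, was not called. Over all genes 19.8% were called higher and 22% lower in this comparison. For the same 8 genes every array after αGalCer lay above every vehicle array, which held for 21.7% of all genes. Their changes fell into a high set and a low set: Gzmb, Gzma, Prf1 and Nkg7 changed by 3.89 to 5.82, and Gzmk, Fasl, Srgn and Gzmc by 0.79 to 1.54. The median change of the 9 genes was 1.54, beside -0.018 for all genes. In bulk tissue, more cells of a type and more RNA per cell cannot be told apart.

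**Figure D1:**
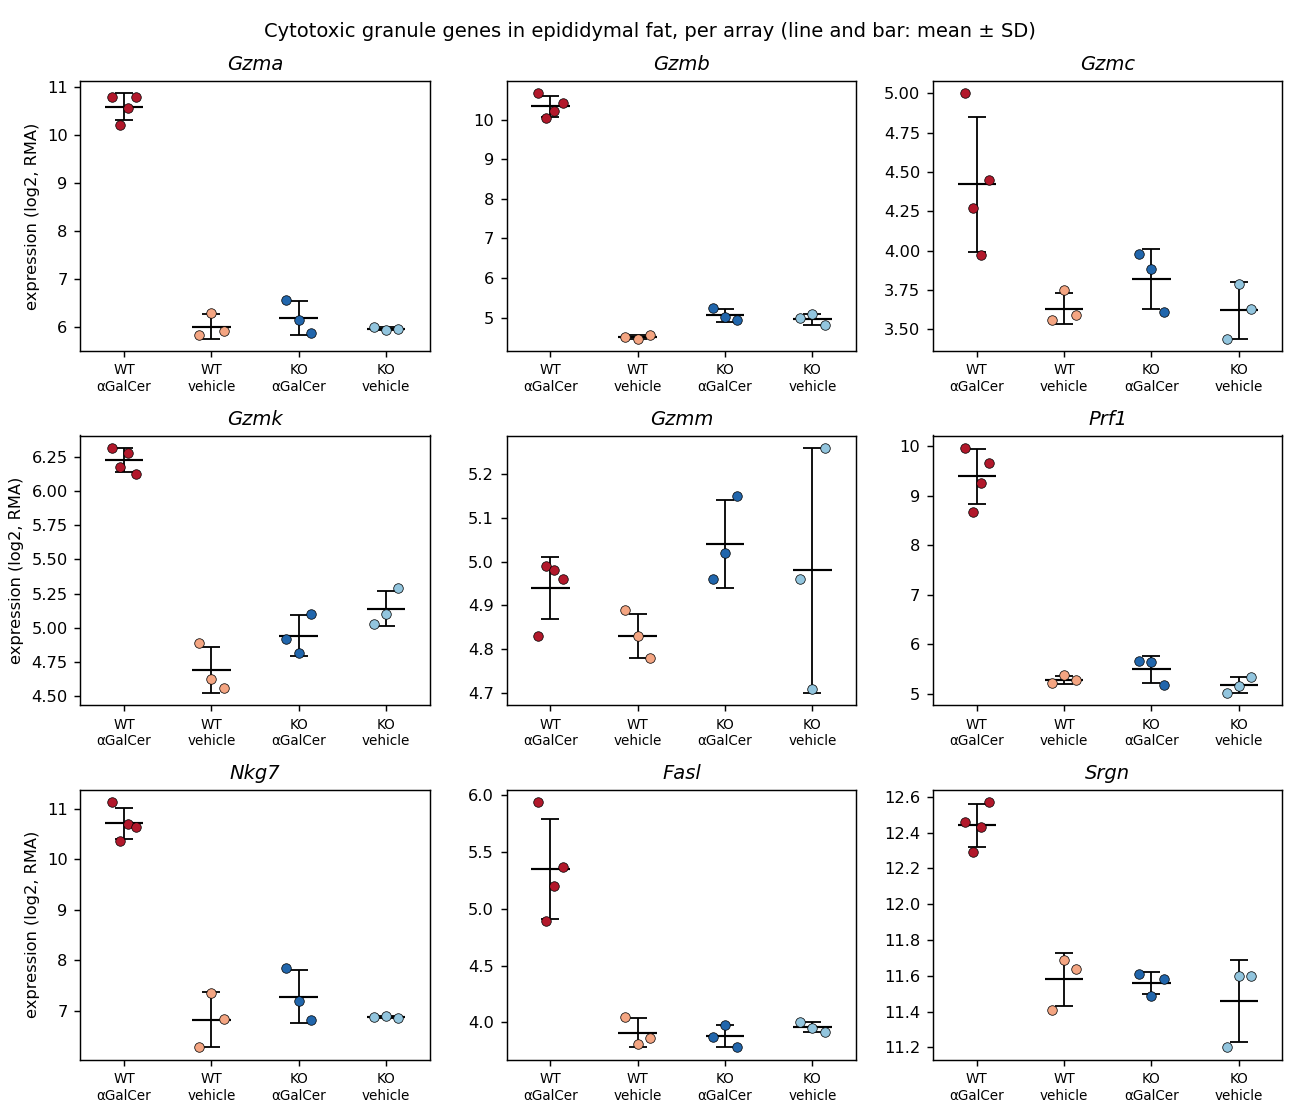
Expression (log2, RMA) of the 9 granule genes in each array, by group, with the mean (line) and SD (bar); each panel has its own axis, which does not start at 0. In all panels but that of Gzmm the 4 wild type αGalCer arrays lie above all 3 wild type vehicle arrays, and in none do the knockout αGalCer arrays lie wholly above or below the knockout vehicle arrays.

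Granzyme B, a protease that cleaves caspases in target cells, had the largest change of the 9. Gzmb stood at 10.67, 10.04, 10.23 and 10.42 in wild type arrays after αGalCer, against 4.51, 4.47 and 4.57 after vehicle. The lowest αGalCer array was 5.47 above the highest vehicle array, and the arrays of each group were far closer to each other than that. The difference was 5.82 ± 0.14, a fold of 56.6 (95% interval 45.8 to 70.0, adjusted p = 1.82e-10). It ranked 2 among the changes of all 18818 genes.

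Granzyme A, a tryptase that in mouse lies beside Gzmk on chromosome 13, showed the next largest change. Gzma was at 10.8, 10.22, 10.56 and 10.8 in wild type arrays after αGalCer, against 5.84, 6.31 and 5.92 after vehicle. The difference was 4.57 ± 0.18 (fold 23.8, adjusted p = 5.84e-09). The groups were 3.91 apart at their nearest arrays.

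Perforin, the pore-forming protein, was the most variable of the high set within the treated group. Prf1 read 9.97, 8.67, 9.25 and 9.67 in wild type arrays after αGalCer (SD 0.56), against 5.22, 5.38 and 5.28 after vehicle (SD 0.08). Replicate 2 was the lowest treated array and still 3.29 above the highest vehicle array. The difference was 4.10 ± 0.24 (fold 17.1, 95% interval 11.9 to 24.7, adjusted p = 1.01e-07). A further 3 probe sets carry Prf1 together with another gene and were not used. The one shared with Sergef had means of 6.41 after αGalCer and 5.65 after vehicle. Both shared with the mitochondrial gene COX2 were far brighter, with means of 12.30 and 12.16 after αGalCer and 12.68 and 12.53 after vehicle.

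Nkg7, a membrane protein of cytotoxic granules that takes part in their release, differed more between the wild type vehicle arrays than the other granule genes, though not between the knockout vehicle arrays (SD 0.02). It measured 11.13, 10.37, 10.7 and 10.64 in wild type arrays after αGalCer, against 6.27, 7.35 and 6.84 after vehicle (SD 0.54). The groups stayed 3.02 apart. The difference was 3.89 ± 0.26 (fold 14.8, adjusted p = 2.26e-07).

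These 4 genes had the largest changes of the 9, so their promoters are shown, from 250 bases before to 50 bases after the RefSeq start site, in the assembly GRCm38.p6. Capitals mark matches on either strand to the letters of 5 motifs of factors active in lymphocytes: the RUNX core TGTGGT, the AP-1 site TGANTCA, the T-box site GGTGTGA, the cAMP response element (TGACGTCA) and the STAT site (TTCNNNGAA). No matches overlapped each other in these 4 windows. The Gzmb window is chr14:56262285-56262584 (minus strand), Gzma is chr13:113100932-113101231 (minus strand), Prf1 is chr10:61297586-61297885 (plus strand) and Nkg7 is chr7:43436888-43437187 (plus strand).
Gzmb: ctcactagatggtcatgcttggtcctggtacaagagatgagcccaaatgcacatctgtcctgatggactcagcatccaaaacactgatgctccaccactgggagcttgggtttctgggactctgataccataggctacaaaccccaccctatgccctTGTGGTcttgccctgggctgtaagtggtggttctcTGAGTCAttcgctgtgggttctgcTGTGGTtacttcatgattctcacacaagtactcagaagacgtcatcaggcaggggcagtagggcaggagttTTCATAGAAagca
Gzma: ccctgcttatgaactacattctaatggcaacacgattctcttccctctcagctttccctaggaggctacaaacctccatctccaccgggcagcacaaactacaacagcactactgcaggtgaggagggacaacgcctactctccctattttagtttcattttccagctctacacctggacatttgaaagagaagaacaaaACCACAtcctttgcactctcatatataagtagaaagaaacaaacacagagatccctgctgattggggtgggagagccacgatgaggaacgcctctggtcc
Prf1: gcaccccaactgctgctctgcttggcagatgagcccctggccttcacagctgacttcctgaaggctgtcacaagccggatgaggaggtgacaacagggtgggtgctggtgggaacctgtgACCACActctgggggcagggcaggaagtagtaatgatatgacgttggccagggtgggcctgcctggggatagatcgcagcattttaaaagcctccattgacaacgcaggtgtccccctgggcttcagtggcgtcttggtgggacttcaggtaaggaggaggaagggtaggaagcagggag
Nkg7: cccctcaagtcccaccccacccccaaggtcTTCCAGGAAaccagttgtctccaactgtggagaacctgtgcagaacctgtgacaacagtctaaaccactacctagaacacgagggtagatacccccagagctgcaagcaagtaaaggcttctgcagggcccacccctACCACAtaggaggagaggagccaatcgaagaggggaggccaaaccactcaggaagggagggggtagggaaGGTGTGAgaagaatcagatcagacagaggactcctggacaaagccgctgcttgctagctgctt
A RUNX core stood in all 4 windows, with 2 matches in Gzmb, the nearer one starting 34 bases before the start site. Among all 32851 promoter windows of the same length 16.8% held this core. Gzmb also held an AP-1 match 58 bases before its start site (7.81% of all windows), and Nkg7 a T-box match 13 bases before it (3.98%). STAT letters were found in Gzmb, after the start site, and in Nkg7 (8.3% of all windows). Over all 9 granule genes, with 11 windows, 7 genes had a RUNX core, 3 a T-box match, 3 a STAT match, 1 an AP-1 match and 1, Gzmc, a cAMP response match (1.79% of all windows). Gzmm, which was not called, was among those with a RUNX core, so the core did not separate the called genes from it. These are letter matches in a window and say nothing of binding.

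Granzyme K, the neighbour of Gzma, had a smaller change with a small spread. Gzmk was at 6.32, 6.18, 6.28 and 6.13 in wild type arrays after αGalCer, against 4.89, 4.62 and 4.56 after vehicle. The difference was 1.54 ± 0.11 (fold 2.91, adjusted p = 3.9e-07). The nearest arrays of the groups were 1.24 apart, and the SD of the 4 treated arrays was 0.09.

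Fas ligand, the death ligand of cytotoxic lymphocytes, came next. Fasl stood at 5.94, 4.89, 5.2 and 5.37 in wild type arrays after αGalCer, against 4.05, 3.81 and 3.86 after vehicle. The difference was 1.44 ± 0.18 (fold 2.72, adjusted p = 3.17e-05). Its vehicle arrays were dim, at the 17.0th percentile of genes on average, where array values compress changes. The same limit touches Gzmc (12.9th percentile in wild type vehicle arrays), Gzmb (26.0th), Gzmk (28.7th) and Prf1 (36.6th), so their folds may be understated.

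Serglycin, the proteoglycan that holds granzymes and perforin in the granule, is made by many blood cell types besides lymphocytes. Srgn was bright in every array, with 12.46, 12.29, 12.43 and 12.57 in wild type fat after αGalCer, against 11.41, 11.69 and 11.64 after vehicle. The difference was 0.85 ± 0.11 (fold 1.81, adjusted p = 2.28e-05). The call was lost when a change of at least 1.5-fold was required (adjusted p = 0.0815).

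Granzyme C, a gene that activated mouse lymphocytes express, had the smallest called change. Gzmc read 5, 4.27, 3.97 and 4.45 in wild type arrays after αGalCer, against 3.56, 3.75 and 3.59 after vehicle. Replicate 1 was the highest treated array, and replicate 3 lay only 0.22 above the highest vehicle array. The difference was 0.79 ± 0.19 (fold 1.73, adjusted p = 0.00452), and it was not called when at least 1.5-fold was required (adjusted p = 0.702). Gzmc lies next to Gzmb in the granzyme cluster of chromosome 14, whose members are similar in sequence, and the mean of another probe set that names Gzmf and Gzmc together was 3.25 after αGalCer and 3.24 after vehicle.

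Granzyme M, a protease known from NK cells, was the exception. Gzmm measured 4.83, 4.99, 4.98 and 4.96 in wild type arrays after αGalCer, against 4.89, 4.83 and 4.78 after vehicle. The groups overlapped, with 3 of 4 treated arrays above all vehicle arrays. The difference was 0.11 ± 0.12 (95% interval -0.15 to 0.37, adjusted p = 0.526), so a fold above 1.29 lies outside the interval. Gzmm was dim too, at the 30.7th percentile of genes in wild type vehicle arrays, where array values compress changes. The interval takes no account of that, so a change may be understated. The other measured granzymes of the chromosome 14 cluster, Gzmd (-0.05 ± 0.07), Gzmg (-0.06 ± 0.10) and Gzmn (0.09 ± 0.07), were not called either (adjusted p = 0.622, 0.705 and 0.355). Their probe sets were dim, with means of 2.56 to 4.39 in wild type vehicle arrays.

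In CD1d knockout fat 0 of the 9 granule genes were called after αGalCer by limma, 0 had an unadjusted p under 0.05, and 0% of all genes were called. For each of the 9 the arrays of the 2 knockout groups overlapped, while 7.79% of all genes had every αGalCer array above and 6.04% below every vehicle array. Gzmb was at 5.24, 5.01 and 4.94 in knockout arrays after αGalCer, against 4.98, 5.08 and 4.81 after vehicle, a difference of 0.10 ± 0.15. The 95% interval for its fold was 0.857 to 1.35, which does not reach the interval of its fold in wild type. Prf1 stood at 5.67, 5.65 and 5.18 after αGalCer, against 5.03, 5.17 and 5.35 after vehicle (0.32 ± 0.26, 95% interval -0.25 to 0.89). Of the 9, Nkg7 had the largest difference between the knockout groups: 7.84, 7.19 and 6.82 after αGalCer, against 6.87, 6.89 and 6.86 after vehicle. That difference was 0.41 ± 0.28 (adjusted p = 0.786), and with single arrays left out it ran from 0.13, without knockout αGalCer replicate 1, to 0.64. The remaining 6 genes changed by -0.20 to 0.23, and no upper 95% limit among them passed 0.65. Without the 3 arrays with muscle transcripts, which leaves 1 vehicle array, the 9 differences ran from -0.42 to 0.65. The spread in that fit comes from the other groups, so its lack of calls is no check of these values.

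The injection effect differed between the genotypes for 7 of the 9 genes, all larger in wild type, and 13.9% of all genes were called higher in this test, of 28.2% called in either direction. The difference of effects was 5.72 ± 0.21 for Gzmb (adjusted p = 2.52e-08), 4.34 ± 0.26 for Gzma (adjusted p = 1.3e-06), 3.78 ± 0.36 for Prf1 (adjusted p = 1.47e-05) and 3.48 ± 0.39 for Nkg7 (adjusted p = 3.7e-05). In the low set it was 1.73 ± 0.17 for Gzmk, 1.52 ± 0.27 for Fasl and 0.76 ± 0.15 for Srgn, with an adjusted p of at most 0.00237. Gzmc did not pass (0.59 ± 0.28, adjusted p = 0.154). It passed without wild type αGalCer replicate 3 (0.74, adjusted p = 0.0418) and with array weights (0.62, adjusted p = 0.0316). For Gzmm the difference was 0.04 ± 0.17 (95% interval -0.34 to 0.42).

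**Figure D2:**
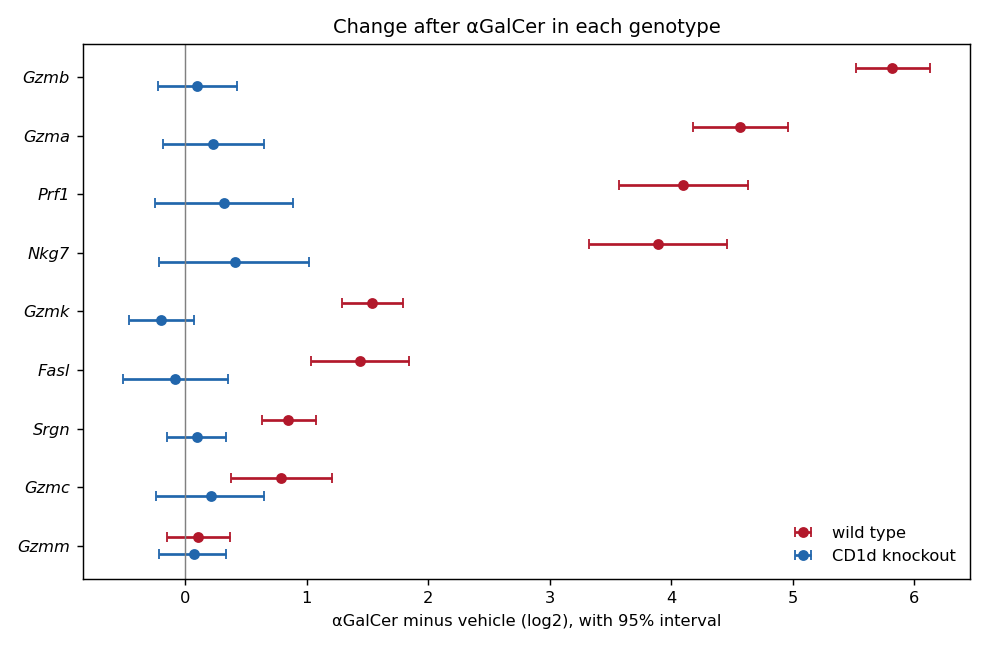
Difference between αGalCer and vehicle (log2, x axis) with its 95% interval for each of the 9 genes, in wild type (red) and CD1d knockout (blue). The intervals in wild type lie above 0 for 8 genes, while every interval in knockout includes 0.

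Genotypes were also compared under the same injection. After αGalCer, 8 of the 9 genes were lower in knockout than in wild type fat, where 19.2% of all genes were called lower. For 7 of them every knockout array lay below every wild type array, as did 22.3% of all genes. Gzmb differed by -5.28 ± 0.14, Gzma by -4.39 ± 0.18, Prf1 by -3.89 ± 0.24 and Nkg7 by -3.43 ± 0.26. The smallest called difference was that of Gzmc (-0.60 ± 0.19, adjusted p = 0.0226), whose groups overlapped. Without knockout αGalCer replicate 3, 1 of the arrays with muscle transcripts, it was -0.49 with an adjusted p of 0.103. The wild type αGalCer arrays are shared between this comparison and that of αGalCer with vehicle in wild type, so both rest in part on the same values.

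After vehicle, 0 of the 9 genes were called between knockout and wild type by limma, where 0.112% of all genes were called. Unadjusted, 2 had a p under 0.05, and the share of all genes under that limit was not counted. These were Gzmb and Gzmk, both higher in knockout. Knockout vehicle replicates 1 and 2 are arrays with muscle transcripts (marker means of 8.67 and 6.97). Gzmb was at 4.98, 5.08 and 4.81 in knockout arrays, against 4.51, 4.47 and 4.57 in wild type arrays, without overlap (0.44 ± 0.15, adjusted p = 0.538). Gzmk stood at 5.03, 5.1 and 5.29 in knockout arrays, against 4.89, 4.62 and 4.56 in wild type arrays, again without overlap (0.45 ± 0.12, adjusted p = 0.347). Of all genes, 7.38% had every knockout array above every wild type array. Gzmk was called with array weights (0.49, adjusted p = 0.0395) and under no other alternative, and Gzmb under none.

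In the order of group means, wild type after αGalCer was the highest for 8 genes. For Gzmb the others followed as knockout after αGalCer (5.06 ± 0.16, SD, n = 3), knockout after vehicle (4.96 ± 0.14) and wild type after vehicle (4.52 ± 0.05). The 2 knockout groups overlapped, and the arrays of both lay above wild type after vehicle. For Gzmk the order below the top was knockout after vehicle (5.14 ± 0.13), knockout after αGalCer (4.94 ± 0.15) and wild type after vehicle (4.69 ± 0.17), and both steps overlapped. For Gzma, Prf1, Nkg7, Srgn, Fasl and Gzmc the arrays of knockout after αGalCer overlapped those of knockout after vehicle. The lower 3 means of Nkg7 were 7.28 in knockout after αGalCer, 6.88 in knockout after vehicle and 6.82 in wild type after vehicle. Gzmm had its highest mean in knockout after αGalCer (5.04 ± 0.10) and its widest spread in knockout after vehicle (4.98 ± 0.28), and no pair compared was called.

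Arrays of a group also differed from each other in the granule genes. Deviations from the group mean, over the 13 arrays, correlated at up to 0.88 (Gzma with Nkg7), with a median of 0.39 over the 36 pairs a lowest value of -0.65 (Gzmb with Gzmm) and 11 pairs below 0. The arrays share RNA quality and tissue makeup across genes, so these values are a description. Among wild type αGalCer arrays, replicate 1 was the highest for 6 of the 9 genes and replicate 2 the lowest for 6. NK cell markers (mean of 7 genes) stood at 7.12, 6.27, 7.02 and 7.14 in these arrays, and replicate 2 was the lowest there too. T cell markers (mean of 7 genes) ran from 7.32 to 7.57, with replicate 2 at 7.51. CD8 markers (mean of 2 genes) were at 7.61, 6.05, 6.93 and 6.63, with replicate 1 the highest and replicate 2 the lowest, as for most granule genes. Replicate 2 stood apart in other tissue markers too. Among these arrays it was the lowest for adipocyte (10.53) and endothelial markers (8.34). It was the highest for macrophage (11.03) and skeletal muscle markers (5.96). In knockout fat after αGalCer, replicate 1 was the highest for 6 genes and replicate 3 the lowest for 6. NK cell markers were at 5.09, 4.63 and 4.46 in those 3 arrays, and macrophage markers at 9.94, 9.59 and 9.42. Replicate 3 is also the array with skeletal muscle transcripts, whose markers were at 4.97, 5.27 and 8.97. The part of these cell markers in the granule genes was not tested.

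**Figure D3:**
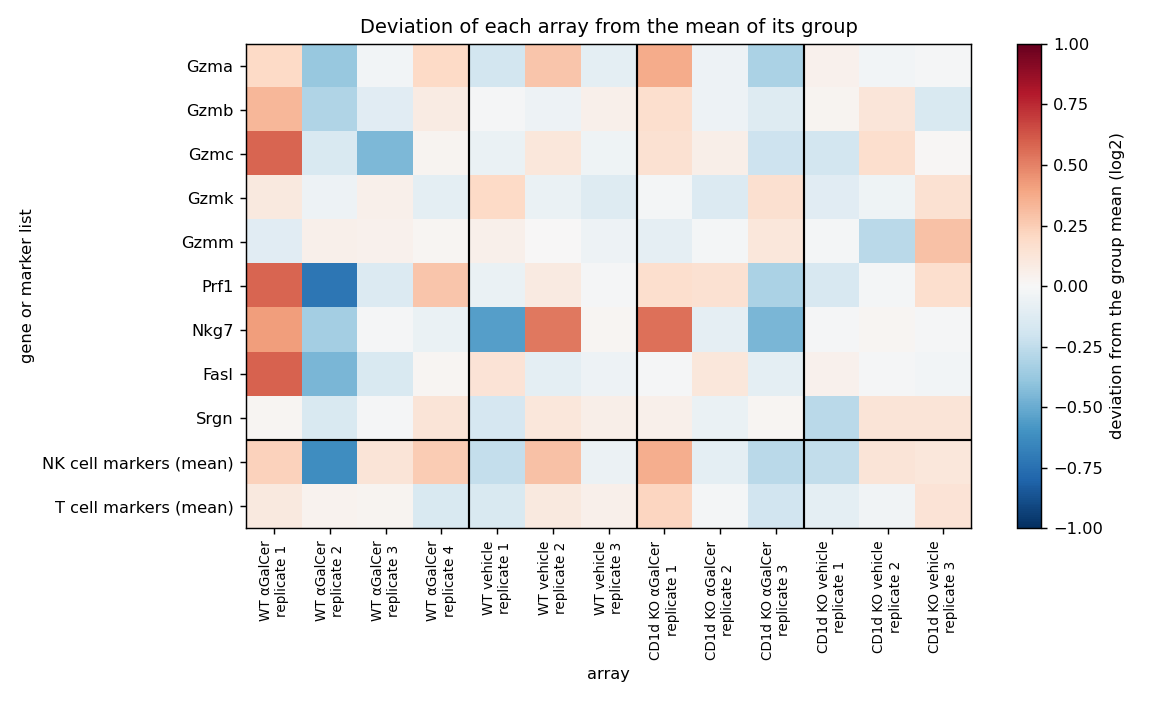
Deviation of each array from the mean of its group (log2, colour) for the 9 granule genes and, below the line, the mean of the NK and T cell markers. Wild type αGalCer replicate 2 is low for Prf1, Fasl, Gzma, Gzmb and Nkg7 and for the NK cell markers, but not for the T cell markers.

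Markers of cells that can make granule proteins were measured beside the granule genes, and they did not all move alike. In wild type fat after αGalCer all 7 NK cell markers rose (median 2.56), as did both CD8 markers, Cd8a by 2.10 and Cd8b1 by 1.56, and all 7 T cell markers (median 1.91). Beside these and the marker counts below, 19.8% of all genes were called higher and 22% lower. The mean of the NK cell markers ran from 6.27 to 7.14 after αGalCer, against 4.19 to 4.72 after vehicle. Macrophages, which contain serglycin, had 6 of 7 markers higher (median 1.39), and neutrophils 5 of 5. Mast cells hold serglycin and, in mouse, can hold granzyme B, but none of their 7 markers rose. Of the 7, 2 were called lower, Kit (-0.95 ± 0.19) and Cpa3 (-0.92 ± 0.27), beside 22% of all genes. The mast cell mean was 5.02 to 5.35 after αGalCer, against 5.41 to 5.61 after vehicle. Of 3 markers of plasmacytoid dendritic cells 2 rose, of 2 basophil markers 1 rose, and of 3 platelet and 3 B cell markers none was called. The basophil mean was low, 3.29 to 3.35 after αGalCer against 3.06 to 3.21 after vehicle. The effect differed between genotypes for all 7 NK, both CD8, 6 of 7 T cell, 4 of 7 macrophage and 1 of 5 neutrophil markers. It did so for 1 of the 3 plasmacytoid, 1 of the 7 mast cell and 0 of the 2 basophil markers. Of all genes 28.2% were called in that test, in either direction. Adipocyte markers fell in 6 of 6 cases (median -1.13) and endothelial markers in 4 of 4 (median -1.44). The part of each cell type in the granule genes was not tested, and no probe set was declared absent, since no detection calls were used. Whether the NK cell markers separate NK cells from NKT or CD8 T cells was not tested either.

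Genes that process and fill the granule also rose. Of 7 such genes 5 rose in wild type fat, none fell, and the median change was 1.04, beside 19.8% of all genes called higher. Cst7 (cystatin F), an inhibitor of the cathepsins that activate granzymes, changed by 3.57 ± 0.15 (adjusted p = 9.76e-09). The cathepsin Ctsw of NK and CD8 T cells changed by 3.29 ± 0.20. Ctsc, the dipeptidyl peptidase that removes the propeptide of granzymes, changed by 1.40 ± 0.09 (adjusted p = 1.21e-07), with means of 12.37 after αGalCer and 10.97 after vehicle. Ctsh (1.04 ± 0.14) and the granule chaperone Calr (0.62 ± 0.07) rose less. The general lysosomal membrane proteins Lamp1 (0.14 ± 0.08, adjusted p = 0.19) and Lamp2 (0.17 ± 0.12, adjusted p = 0.321) were not called. In knockout fat 0 of the 7 were called, beside 0% of all genes. The injection effect differed between genotypes for the same 5, beside 28.2% of all genes.

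Genes of granule transport and release were mostly higher too. Of 18 measured, 12 rose, 1 fell and 5 were not called, with a median of 0.83. Of all genes 19.8% were called higher and 22% lower. The largest rises were in the actin regulators Coro1a (2.26 ± 0.16, adjusted p = 2.54e-07) and Was (2.20 ± 0.10, adjusted p = 2.43e-08). Vamp2, a vesicle fusion protein, was the 1 that fell (-0.61 ± 0.07, adjusted p = 1.84e-05). Chosen after their values were seen, because human mutations in them impair granule release, were Unc13d (2.13 ± 0.10), Stx11 (1.92 ± 0.17), Rab27a (0.93 ± 0.16) and Stxbp2 (0.88 ± 0.12), all of which rose. Of the same list, and also named after their values were seen, Ap3b1 rose by 0.34 ± 0.09. Lyst, named likewise, was not called (0.23 ± 0.14, adjusted p = 0.213). In knockout fat 0 of the 18 were called, beside 0% of all genes. The effect differed between genotypes for 11, with 10 larger in wild type and 1, Vamp2, lower there, beside 28.2% of all genes called in either direction.

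Cells that carry granzymes protect themselves with serpins. Of 6 listed inhibitors of granule proteases, not all of them chosen for that role, 5 rose in wild type fat (median 1.13), beside 19.8% of all genes called higher. Serpinb9b changed by 3.15 ± 0.19 (adjusted p = 1.01e-07) and Serpinb9, an inhibitor of granzyme B, by 1.57 ± 0.16 (adjusted p = 5.22e-06). Serpinb1a (1.28 ± 0.15), Serpinb6b (0.97 ± 0.27) and Serpinb6a (0.55 ± 0.11) rose as well, while Serpina3n was at -0.03 ± 0.12 (adjusted p = 0.902). In knockout fat 0 of the 6 were called, beside 0% of all genes. For 4 of them the effect differed between genotypes, beside 28.2% of all genes.

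Fas ligand and its relatives act on the target cell through death receptors, and most genes of that pathway were not called. Of 9 genes 3 rose, none fell and 6 were not called, with a median of 0.18, beside 19.8% of all genes called higher and 22% lower. Tnf, a death ligand and inflammatory cytokine, changed by 2.78 ± 0.33 (adjusted p = 1.47e-05) and Bid by 1.09 ± 0.12 (adjusted p = 9.99e-06). Chosen after their values were seen, Casp8 rose by 0.61 ± 0.07, and Fas, the receptor of Fas ligand, was at 0.18 ± 0.16 (adjusted p = 0.407). Set beside Fas, Fasl had a larger change, but the difference between both genes was not tested. In knockout fat 0 of the 9 were called, beside 0% of all genes. The effect differed between genotypes for 3, near the 28.2% of all genes.

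Transcription factors of cytotoxic lymphocytes rose in 8 of 9 cases (median 2.04), beside 19.8% of all genes called higher. Zeb2 was not called (-0.09 ± 0.22, adjusted p = 0.799). Eomes, a T-box factor, changed by 3.52 ± 0.33 (adjusted p = 2.1e-06) and Stat4, which transmits the interleukin 12 signal, by 3.42 ± 0.27 (adjusted p = 6.51e-07). Chosen after their values were seen as the factors of the promoter motifs, Runx3 rose by 2.77 ± 0.19 and the T-box factor Tbx21 by 2.66 ± 0.16. The effect differed between genotypes for the same number of factors, 8 of 9, beside 28.2% of all genes. In knockout fat 0 were called, beside 0% of all genes.

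Of 14 cytokines and receptors that drive these cells, 10 rose and none fell (median 0.66), beside 19.8% of all genes called higher. Il2rb, the receptor chain shared by interleukins 2 and 15, changed by 3.76 ± 0.23 (adjusted p = 1.07e-07) and Il12rb2 by 3.52 ± 0.15 (adjusted p = 8.96e-09). Ifng, chosen after its values were seen as a cytokine of NK and NKT cells, changed by 3.17 ± 0.19 (adjusted p = 1.01e-07). In knockout fat 0 of the 14 were called, beside 0% of all genes. The effect differed between genotypes for 6, beside 28.2% of all genes.

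**Figure D4:**
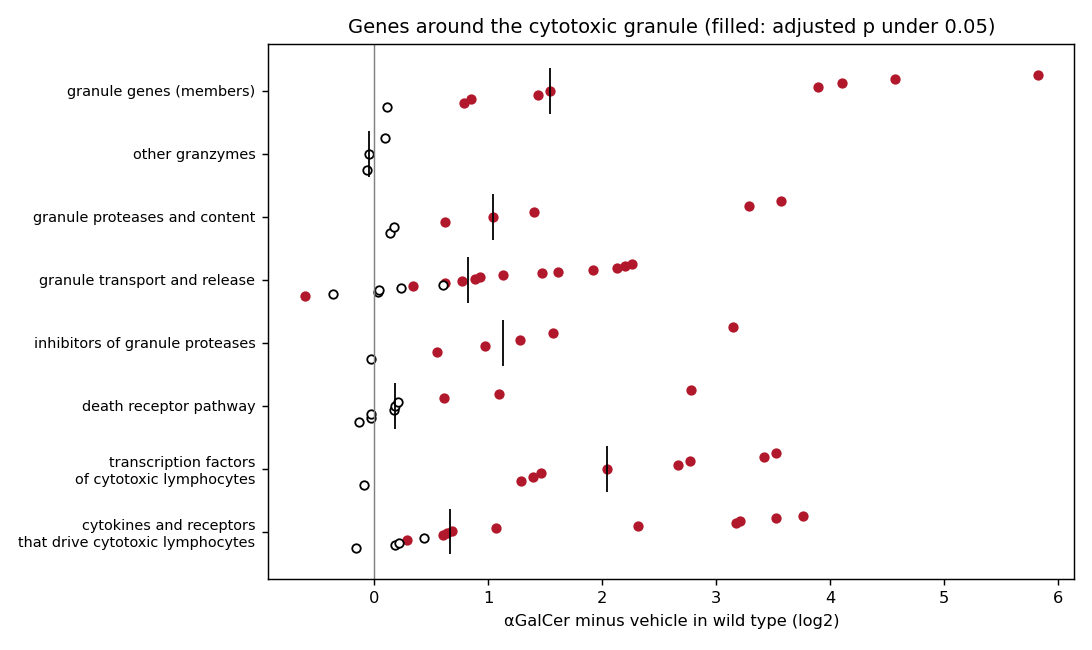
Difference between αGalCer and vehicle in wild type fat (log2, x axis) for each gene of 8 lists, among them the 9 granule genes; filled points have an adjusted p under 0.05 and the vertical line is the list's median. Gzmb is the point farthest to the right, the 3 other granzymes lie near 0, and Vamp2 is the filled point below 0.

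Named genes whose values ran most like those of a granule gene were ranked by Pearson's r over the 13 arrays, where the contrast between wild type arrays after αGalCer and all others makes up most of the variation. For Gzmb they were Pdcd1lg2 and Cst7 (r = 0.996 each) and Tfec (0.995). For Prf1 they were Sh2d2a, Rnase2b and Gzma (0.995 each), and for Srgn they were Snx2, Mgat2 and Gbp4 (0.984 each). Over deviations from the group means other genes came first: Bgn (0.926), Glo1 (0.926) and Gstm2 (0.916) for Gzmb, Yap1 (0.953), Slc1a1 (0.951) and the NK cell receptor Klre1 (0.946) for Prf1, and Ifi205 (0.97), Cog3 (0.966) and Slfn5 (0.963) for Srgn. They are the highest among the named genes of the 18818, with RIKEN, predicted and clone symbols left out. The arrays share tissue makeup and RNA quality.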

How the data were processed

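Total RNA of epididymal fat was measured on 13 Affymetrix arrays in 4 groups. The authors deposited log2 values made with RMA, per the submitters' processing notes; which software version, chip description file and genome build they used is not given in the sources used here. Across arrays, deposited log2 values ran from 1.53 to 13.84, with array medians of 5.68 to 5.83, and were not normalized again. Precision is limited by the number of arrays. Of 35556 probe sets, 21218 carried 1 gene symbol, 1881 several and 12457 none. Symbols were updated to RefSeq GRCm38.p6 for 21185 by Entrez ID and 3 by accession, and 30 kept theirs. For each of 18818 genes the probe set with the highest mean was used. Promoter sequences are RefSeq's, of GRCm38.p6.

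Group means were fitted with limma 3.58.1 in R 4.3.3 (eBayes with an intensity trend, 9 residual degrees of freedom, Benjamini-Hochberg adjustment over all genes, called at an adjusted p under 0.05), and the script was tested on simulated data. The members and lists were chosen with earlier results of these data known, and 141 of 151 listed genes were matched. Named were all 9 granule genes, Cd1d1, up to the 2 largest rises and 2 largest falls of each other list (any gene of a list of at most 7), and the 3 genes most like Gzmb, Prf1 and Srgn. Genes named outside this rule are marked. Alternatives changed the variance model, the filter on dim genes, the normalization, array weights, the arrays fitted, the choice of probe set and the minimum fold, added the replicate number as a block, or left out arrays.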

Additional observations from a re-analysis of the deposited data

Results flagged for a closer look

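The difference of the αGalCer effect between genotypes (wild type minus CD1d knockout, log2), tested with limma over all genes, was called for 33 of the 43 genes followed, beside 28.2% of all genes. Many of the 43 were named for a large change in wild type or after their values were seen, so a high count is partly built in. Among the granule genes it was 5.72 for Gzmb, 4.34 for Gzma, 3.78 for Prf1, 3.48 for Nkg7, 1.73 for Gzmk, 1.52 for Fasl and 0.76 for Srgn. Among genes of granule filling it was 3.44 for Cst7, 3.06 for Ctsw, 1.45 for Ctsc, 0.99 for Ctsh and 0.67 for Calr. For transport and release it was 2.02 for Coro1a, 1.90 for Was, 1.87 for Unc13d, 1.56 for Stx11, 0.94 for Stxbp2, 0.70 for Rab27a and -0.60 for Vamp2. For the serpins it was 2.75 for Serpinb9b, 1.47 for Serpinb9, 1.18 for Serpinb1a and 0.47 for Serpinb6a. In the death receptor pathway it was 2.38 for Tnf, 1.24 for Bid and 0.54 for Casp8. For transcription factors it was 3.18 for Eomes, 2.63 for Stat4, 2.54 for Runx3 and 2.34 for Tbx21, and for cytokines and receptors 3.38 for Il2rb, 3.04 for Il12rb2 and 2.98 for Ifng.

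By Dixon's test in the wild type αGalCer group, the 1 group of 4 arrays, 2 of 43 genes had an array far from the others. Gzmg was at 4.48 in replicate 2, against 4.27 to 4.30 in the other 3 arrays. Tbx21 was at 8.51 in replicate 1, against 8.01 to 8.09. Chance gives about 1 in 20 such groups.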

How the results depend on the processing

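With single arrays left out, the number of the 9 granule genes called was 8 in every case for αGalCer in wild type, 0 in knockout, 7 to 8 for the difference of effects, 0 between genotypes after vehicle and 7 to 8 after αGalCer. Among the 10319 brighter genes tested alone, 31% were called higher for αGalCer in wild type. Between genotypes after αGalCer 30.9% of them were called lower in knockout. That filter left 5 granule genes, and 5 were called in wild type and 5 between genotypes after αGalCer (fewer genes were tested). Of these, Gzma, Gzmb and Prf1 averaged below the middle of all genes in each of the other 3 groups and passed through the arrays where they are high, so these counts support nothing. Array weights called 1, Gzmk, between genotypes after vehicle (0.49); the cause was not tested. With probe sets of several symbols kept, Prf1 is represented by a set shared with COX2, and its values were -0.38 in wild type (adjusted p = 0.0145), -0.37 for the difference of effects (0.118) and 0.36 between genotypes after αGalCer (0.0205). Requiring 1.5-fold left 6 granule genes in wild type, 6 for the difference and 6 between genotypes after αGalCer. Whether replicate numbers pair the samples was not tested. Of 18 same-number pairs 5 correlated above 0.1 (range -0.203 to 0.484), and unlike numbers were not set beside them. With the number as a block the calls were 8, 0, 7, 0 and 8 in the same order. Over all genes, calls in wild type were 7881, and 2619 at 1.5-fold; for the difference 5309, and 1622 at 1.5-fold; between genotypes after αGalCer 7739, and 2582 at 1.5-fold. In knockout they were 0, but 322 with array weights, 2 without the 3 arrays with muscle transcripts and 2 without knockout vehicle replicate 3. Between genotypes after vehicle they were 21, but 169 with array weights, 4 at 1.5-fold, 4 with only the arrays compared, 1 without the muscle arrays, 11 without wild type vehicle replicate 3 and 35 without wild type αGalCer replicate 2. Without detection calls, levels of the dim granzymes are limited by the array background.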
